A study of Mus musculus with 18 samples.

Results

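Whole splenic lymphomas taken at end stage from Eμ-Myc mice differed in how much T cell RNA they held, and this difference was used to set 6 T cell rich tumours against 6 T cell poor tumours, out of 18. A T cell score was taken in each tumour as the mean log2 level of Cd3d, Cd3e, Cd3g, Cd8a, Cd4 and Lat. The 6 tumours of highest score formed the T cell rich group, the 6 of lowest score formed the T cell poor group, and the 6 between them are given as the middle group. Every mouse carried the Eμ-Myc transgene, which puts Myc under an immunoglobulin enhancer active in the B lineage, on a background labelled C57BL/6. Of the 18 tumours 9 came from Prdm11 knockout (KO) mice and 9 from Prdm11 wild-type (WT) mice, no treatment was given, and neither age nor sex is stated in the labels. The T cell rich group held 3 KO and 3 WT tumours, the middle group 2 KO and 4 WT tumours, and the T cell poor group 4 KO and 2 WT tumours. The groups were defined by levels on the same arrays that are compared here, so genes of other T cells, and of cells that come with them, were not independent of the ranking.

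The T cell receptor is carried to the surface by the CD3 chains, and signals through kinases to the adaptor Lat, while CD4 and CD8 bind MHC class II and class I on the cell that shows the antigen. Normal spleen holds T cells in the white pulp beside B cell follicles, and natural killer (NK) cells, macrophages and granulocytes mainly in the red pulp. Eμ-Myc lymphomas fill the spleen with B lineage cells, and what is left of these residents, or has entered the tumour, is measured together with the lymphoma in homogenised tissue. In such bulk tissue, fewer cells of a type and less RNA per cell cannot be told apart. Each tumour came from its own mouse, so the p-values below measure the spread between mice.

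Levels are log2 RMA intensities of 1 probe set per gene, and differences are T cell rich minus T cell poor with n = 6 tumours in each group unless stated. Median intensity per array lay between 35.3 and 41.7 before logs were taken. The array of WT tumour 3, a T cell poor tumour, stood apart, since its correlation with the others had a median of 0.937, and the same median was 0.958 to 0.981 for the remaining 17 arrays. Over the 19932 genes outside the score the median difference was -0.07, and 7309 genes had a positive and 12623 a negative difference. The probe set for Prdm11 overlapped between genotypes, at 4.87, 5.21 and 5.49 (lowest, median and highest of 9) in KO tumours and 4.84, 5.33 and 5.66 in WT tumours. Whether it lies inside the deletion is not stated in the labels, and it therefore gives no check on genotype.

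The score genes, which chose the groups and are given as a description, did not all separate them. Cd3d and Cd3g, the delta and gamma chains of CD3, covered the widest range. Cd3d averaged 9.45 ± 1.25 (SD) in T cell rich and 5.51 ± 0.92 in T cell poor tumours, and Cd3g averaged 8.29 ± 1.42 in T cell rich and 5.45 ± 0.45 in T cell poor tumours. Cd8a, a chain of the CD8 coreceptor, averaged 6.46 ± 0.74 in T cell rich and 5.35 ± 0.19 in T cell poor tumours. Lat averaged 7.57 ± 0.49 in T cell rich and 6.62 ± 0.43 in T cell poor tumours, and in the middle group it was 6.52 ± 0.51, below the T cell poor mean. Cd3e averaged 6.04 ± 0.44 in T cell rich and 5.38 ± 0.27 in T cell poor tumours, and Cd4 averaged 5.41 ± 0.70 in T cell rich and 4.77 ± 0.23 in T cell poor tumours. Only Cd3d had all 6 T cell rich tumours above all 6 T cell poor tumours. The score itself fell into a steep and a flat stretch. It was 7.89 in KO tumour 6, 7.73 in WT tumour 4, 7.51 in WT tumour 5, 7.49 in WT tumour 8, 6.54 in KO tumour 5 and 6.06 in KO tumour 1. The 12 middle and T cell poor tumours spanned only 6.03 to 5.37. Just inside the limits of the groups lay 6.06 in KO tumour 1 and 5.66 in WT tumour 3, and just outside them 6.03 in KO tumour 7 and 5.67 in WT tumour 1.

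**Figure D1:**
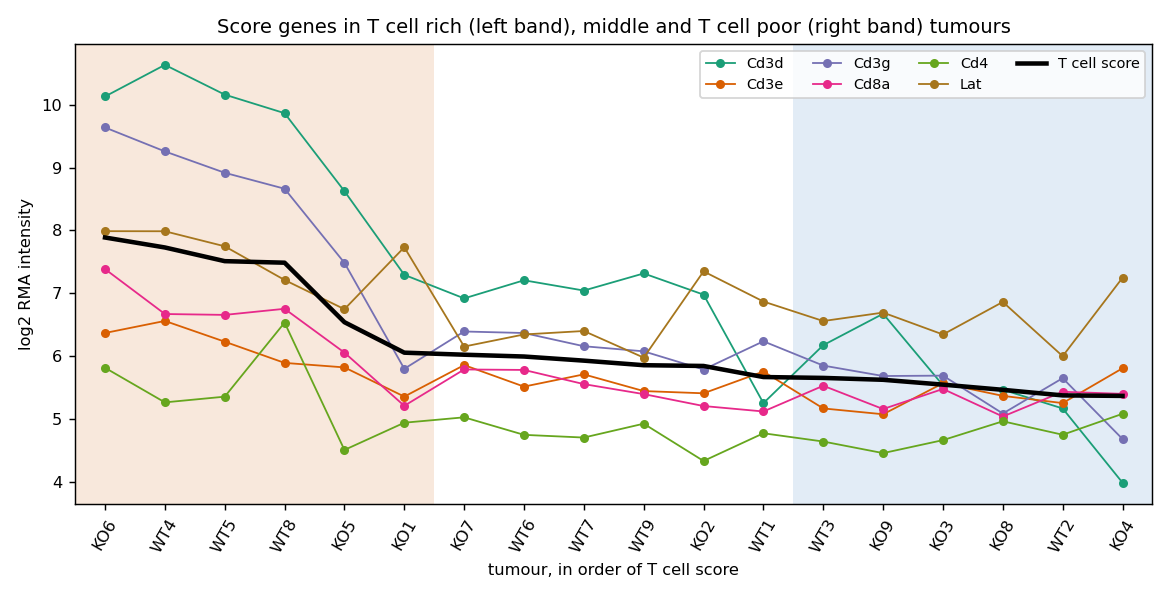
Log2 RMA intensity of the 6 score genes (coloured points) and their mean, the T cell score (black line), in the 18 tumours in order of score. Cd3d and Cd3g stand high in the 5 tumours at the left of the T cell rich band, and in KO tumour 1, the sixth, Lat at 7.73 lies within the T cell rich range while Cd3g at 5.80 lies within the T cell poor range.

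KO tumour 1 went against the name of its group. Its Cd3g of 5.80, Cd8a of 5.22, Cd3e of 5.36 and Cd4 of 4.95 lay within the range of the T cell poor tumours, and of the score genes only Lat at 7.73 and Cd3d at 7.30 lay above it. Of the 31 lists of cell type and pathway genes described below, the list mean of KO tumour 1 lay inside the T cell poor range in 24, above it in 5 and below it in 2. The T cell rich tumours were therefore graded. The list mean lay above all 6 T cell poor tumours in 21 lists in each of KO tumour 6, WT tumour 4 and WT tumour 5, in 17 lists in WT tumour 8, in 12 lists in KO tumour 5 and in 5 lists in KO tumour 1. Without KO tumour 1, 61 of the 436 measured list genes were higher and 1 was lower past the adjusted threshold of limma, against 1.39% and 0.12% of all genes tested. With all 12 tumours 4 list genes were higher past it. Named list genes that passed without this tumour are given with that adjusted p where they are described. This fit was singled out after the values of KO tumour 1 were seen, so p-values from it are a description only. With each tumour left out in turn, the adjusted p in limma ran from 0.0009 to 0.159 for Ccl5. For Cd28 it ran from 0.0066 to 0.285, and for Icos from 0.0085 to 0.274. It ran from 0.0059 to 0.158 for Gzma and from 0.0209 to 0.24 for Ncr1. For each of these genes the lowest value came from the fit without KO tumour 1. WT tumour 8 stood apart from the other T cell rich tumours in a pair of respects. Its Cd4 of 6.54 and its Cd8b1 of 9.50, the beta chain of CD8, were the highest of the 18 tumours, and its Cd79a of 3.69, a signalling chain of the B cell receptor, was the lowest, with the remaining 17 tumours at 5.67 or above.

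KO and WT tumours overlapped along the score. The score was 5.37, 5.85 and 7.89 (lowest, median and highest of 9) in KO tumours and 5.38, 5.93 and 7.73 in WT tumours. KO tumours averaged 6.04 ± 0.78 and WT tumours 6.36 ± 0.93 (SD, n = 9 each), so that KO minus WT came to -0.32 (SE 0.41, exact permutation test, two-sided, p = 0.46 over 48620 splits). The T cell rich group held 3 KO tumours of 6 and the T cell poor group 4 of 6 (two-sided Fisher's exact p = 1.0). Over all 18 tumours, 0 of 19932 genes had a genotype by score interaction that passed after adjustment in limma, while 415 genes (2.08%) had one at an unadjusted p below 0.05.

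Among the genes outside the score, 19 rose and 1 fell in T cell rich tumours past an adjusted p of 0.05 in limma, which is 0.0953% and 0.00502% of the genes tested. At an unadjusted p below 0.05, 1519 genes (7.62%) were higher and 1195 (6.0%) were lower. All 6 T cell rich tumours lay above all 6 T cell poor tumours for 85 genes (0.426%), and below them for 77 genes (0.386%). Of the 19 genes that rose, 14 were in the first set. The genes that rose include receptors and adaptors of T and NK cells, GTPases of lymphocytes, Jchain of plasma cells, Lyz2 of myeloid cells, and the extracellular matrix genes Dpt and Dcn. Their differences ran from 0.96 to 3.67, or 1.95-fold to 12.7-fold, and their adjusted p-values in limma from 0.0192 to 0.0445. The mean of the middle tumours, which did not enter the fit, lay between the means of the T cell rich and T cell poor tumours for all 20 genes. These genes were chosen for the gap between those means, so a middle mean within it was likely and is no separate support. The share over all genes was not counted. In KO tumours alone all 19 genes had positive differences of 0.80 to 3.05, and in WT tumours alone all 19 had positive differences of 1.10 to 4.65. The genes were chosen on the same tumours pooled, so positive differences within each genotype were likely and do not replicate the rise. Between genotypes these 20 genes had KO minus WT differences of -0.87 to 0.19, with a smallest adjusted p of 0.794 in limma over 18 tumours.

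The count of genes past the threshold depended on single tumours. It was 0 without KO tumour 6, WT tumour 4, WT tumour 5, KO tumour 3 or KO tumour 8, 1 without WT tumour 3, 2 without WT tumour 8 and 2 without WT tumour 2. In the 5 fits with a count of 0 in limma, 1253 to 1528 genes were higher and 926 to 1097 lower at an unadjusted p below 0.05. The 1 gene that passed once WT tumour 3 was dropped was not among the 20 of the main comparison, so 0 of the 20 passed there. Dropping WT tumour 8 kept 2 of the 20, and dropping WT tumour 2 likewise kept 2. Leaving out KO tumour 4 gave 15 genes, 8 of them among the 20. Leaving out KO tumour 5 gave 51, 19 of them among the 20. In the other direction, leaving out KO tumour 1 gave 278 higher and 24 lower genes, and leaving out KO tumour 9, a T cell poor tumour, gave 623 higher and 53 lower genes. All 20 genes of the comparison were also past the threshold without KO tumour 1, where their adjusted p in limma was at most 0.0113. The count was likewise 0 with genotype as a covariate, where the smallest adjusted p was 0.0535, and 0 with tumours ranked by scaled score genes, where KO tumour 7 takes the place of KO tumour 1 among the T cell rich and WT tumour 9 that of KO tumour 4 among the T cell poor tumours. The 5 highest against the 5 lowest tumours gave 211 higher genes (1.06%) and 26 lower genes (0.13%), the 20 included.

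**Figure D2:**
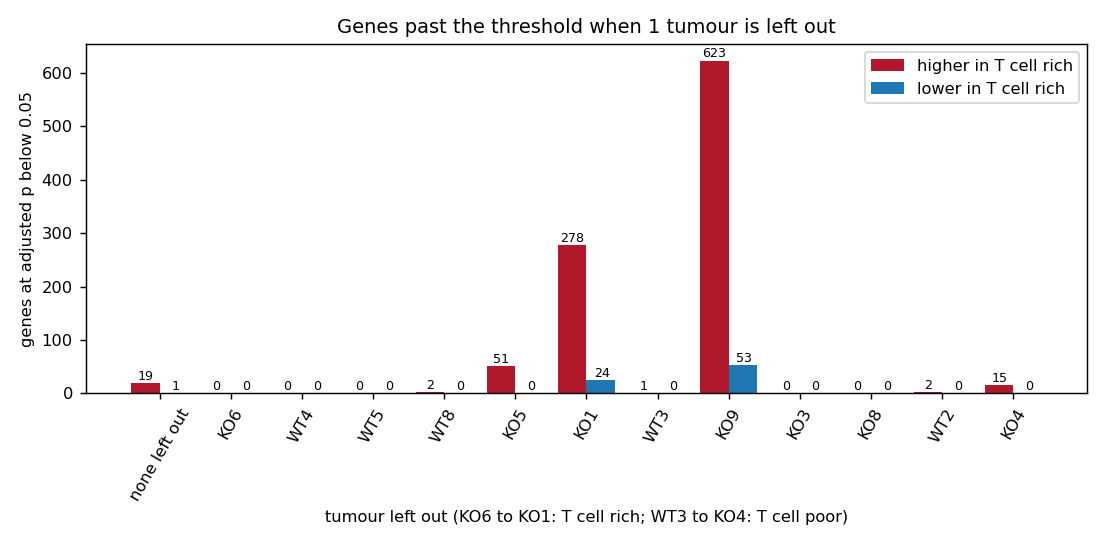
Number of genes at an adjusted p below 0.05 in limma (linear axis), higher (red) and lower (blue) in T cell rich tumours, with no tumour left out and with each of the 12 tumours left out in turn. The bars stand at 19 and 1 with all 12 tumours, at 278 and 24 without KO tumour 1, and at 623 and 53 without KO tumour 9, against 0 and 0 without KO tumour 6, WT tumour 4, WT tumour 5, KO tumour 3 or KO tumour 8.

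The largest rise was in the Ms4a family, small proteins that span the membrane several times and include CD20, the product of Ms4a1. Members of the family differ in which blood cells carry them, and Ms4a4b and Ms4a6b are known from mouse T cells. All 19 measured members lie on chromosome 19, and 3 of them, Ms4a6b, Ms4a6c and Ms4a4b, rose past the threshold. Their proximal promoters from RefSeq (GRCm38.p6, plus strand, 200 bases that end at the base before the annotated start) are printed because these neighbours moved together. Capitals mark GGAAGT, a core that ETS family factors can bind, or ACTTCC, the same core on the other strand. The windows are chr19:11518359-11518558 for Ms4a6b, chr19:11469168-11469367 for Ms4a6c and chr19:11443358-11443557 for Ms4a4b.
Ms4a6b: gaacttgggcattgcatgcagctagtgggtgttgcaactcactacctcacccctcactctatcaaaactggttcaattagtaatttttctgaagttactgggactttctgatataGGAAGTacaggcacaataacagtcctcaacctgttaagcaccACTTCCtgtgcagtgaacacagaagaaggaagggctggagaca
Ms4a6c: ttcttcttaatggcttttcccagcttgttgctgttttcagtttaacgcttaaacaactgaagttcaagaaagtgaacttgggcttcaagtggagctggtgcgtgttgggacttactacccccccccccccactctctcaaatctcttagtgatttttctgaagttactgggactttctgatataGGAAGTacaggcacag
Ms4a4b: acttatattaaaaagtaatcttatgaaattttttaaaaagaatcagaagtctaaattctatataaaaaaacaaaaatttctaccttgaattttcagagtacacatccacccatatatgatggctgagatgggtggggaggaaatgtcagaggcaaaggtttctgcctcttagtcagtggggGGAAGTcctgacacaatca
The windows of Ms4a6b and Ms4a6c shared an unbroken run of 48 bases that holds the core, and the longest run either shared with Ms4a4b was 8 bases. Within 250 bases before the start, GGAAGT was found on either strand in 22.2% of 27025 genes, in 9 of the 16 genes past the threshold that had a promoter there, and in 5 of the 6 measured Ms4a4 and Ms4a6 genes with a promoter there (Ms4a4b, Ms4a4c, Ms4a4d, Ms4a6b and Ms4a6c, but not Ms4a4a). It was 1 of 6 motifs searched on both strands, all chosen after the values were seen. Among the others, TGTGGT was in 15.9% of genes and 4 of the 16, a kB core of NF-kB factors in 19.7% and 6 of the 16, TTCNNNGAA in 8.13% and 2 of the 16, TATAAA in 14.3% and 2 of the 16, and the core of the interferon-stimulated response element in 3.46% and 0 of the 16. Matches to different motifs may overlap, and a match describes letters in the window only.

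Ms4a6b was measured at 7.69, 9.73 and 10.40 (lowest, median and highest) in T cell rich and 5.11, 5.47 and 7.31 in T cell poor tumours. The groups did not overlap, and KO tumour 1 was the lowest of the T cell rich tumours. The rise of Ms4a6b was 3.67 (log2, SE 0.45) or 12.7-fold, at an adjusted p of 0.0192 in limma (0.00065 to 0.096 with 1 tumour left out). Ms4a6c was at 7.33, 9.22 and 9.66 in T cell rich and 5.38, 6.00 and 7.77 in T cell poor tumours, and rose by 2.62 (SE 0.45, adjusted p = 0.0445 in limma). For Ms4a6c 5 of 6 T cell rich tumours lay above all T cell poor tumours. Ms4a4b was at 4.97, 7.18 and 7.62 in T cell rich and 4.19, 4.55 and 5.11 in T cell poor tumours, and rose by 2.16 (SE 0.38, adjusted p = 0.0445 in limma). Here too KO tumour 1, at 4.97, fell inside the T cell poor range. Their neighbours did not pass, with a difference of 2.70 (SE 0.51, adjusted p = 0.0527 in limma) for Ms4a4c and of 1.01 (SE 0.19, adjusted p = 0.0547 in limma) for Ms4a4d. At an unadjusted p below 0.05, 8 of 19 members were higher and 2 were lower, and the median difference over the family was 0.48. Ms4a1, which encodes the B cell antigen CD20, was at 6.79, 10.23 and 10.58 in T cell rich and 5.82, 8.58 and 9.52 in T cell poor tumours, a difference of 1.27 (SE 0.72, adjusted p = 0.435 in limma) with overlapping groups. Probe sets of such close paralogs may share signal, and the family was described after its values were seen.

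Receptors and adaptors of T and NK cells were among the genes that rose. Sh2d1a encodes SAP, the adaptor of SLAM family receptors. It was at 5.90, 8.09 and 8.66 in T cell rich and 4.25, 4.73 and 5.14 in T cell poor tumours and rose by 2.89 (SE 0.42, adjusted p = 0.0264 in limma). No T cell rich tumour overlapped with a T cell poor one. Klrd1 encodes CD94, the partner chain of NKG2 receptors on NK cells and some CD8 T cells. It was at 6.71, 8.93 and 9.93 in T cell rich and 4.94, 5.35 and 6.21 in T cell poor tumours and rose by 3.20 (SE 0.47, adjusted p = 0.0264 in limma). The groups again did not overlap. Gpr171, a G protein-coupled receptor found on T cells, was at 6.42, 9.00 and 9.63 in T cell rich and 4.31, 5.89 and 6.03 in T cell poor tumours and rose by 2.82 (SE 0.49). P2ry10, a receptor for lysophospholipids on lymphocytes, was at 4.39, 6.60 and 7.60 in T cell rich and 3.03, 4.04 and 4.64 in T cell poor tumours and rose by 2.49 (SE 0.42). Both had an adjusted p of 0.0445 in limma, and KO tumour 1 gave the lowest T cell rich value of both, inside the T cell poor range for P2ry10. AW112010, a transcript of immune cells that lay outside the naming rule, rose by 2.41 (SE 0.39, adjusted p = 0.0445 in limma).

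Gimap genes encode GTPases of immunity-associated proteins, which act in the survival of lymphocytes. All 8 measured members lie on chromosome 6, all 8 had positive differences at an unadjusted p below 0.05, and 2 rose past the threshold. Gimap7 was at 7.03, 8.26 and 8.92 in T cell rich and 4.86, 5.95 and 6.64 in T cell poor tumours and rose by 2.15 (SE 0.36). Gimap6 was at 8.40, 8.99 and 9.79 in T cell rich and 6.71, 7.08 and 8.23 in T cell poor tumours and rose by 1.78 (SE 0.30). Both had an adjusted p of 0.0445 in limma and no overlap between groups. Gimap6 and Gimap7 are also neighbours in the RefSeq gene table, and the other run of neighbours with no overlap was Trim34a, Trim12a and Trim12c on chromosome 7. The remaining Gimap genes had differences of 0.58 (Gimap1) to 2.001 (Gimap4). The Gimap and Trim families were looked at after their values were seen, and neighbouring paralogs may share probe signal.

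**Figure D3:**
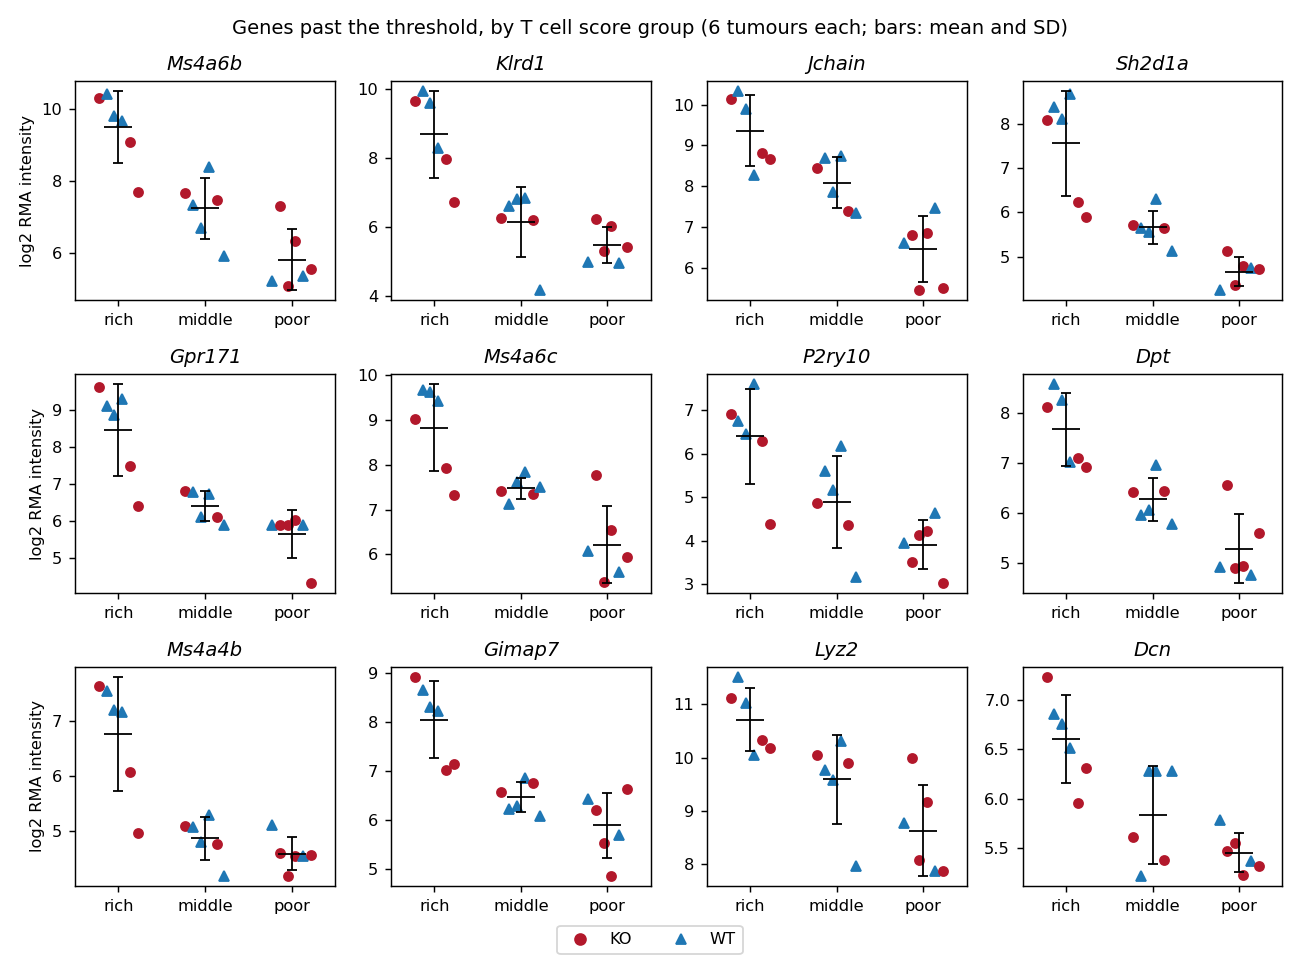
Log2 RMA intensity of 12 of the 19 genes that rose, by group, for 6 tumours each in the T cell rich, middle and T cell poor groups, with KO tumours as circles and WT tumours as triangles. The bars give mean and SD. Ms4a6b runs from 7.69 to 10.40 in T cell rich and from 5.11 to 7.31 in T cell poor tumours. The middle tumours run from 5.92 to 8.39 and overlap both, and KO and WT tumours mix within each group.

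The genes that rose were not limited to T and NK cell genes. Jchain, the joining chain of secreted IgA and IgM in plasma cells, was at 8.28, 9.36 and 10.33 in T cell rich and 5.45, 6.72 and 7.48 in T cell poor tumours. It rose by 2.90 (SE 0.41, adjusted p = 0.0264 in limma) with no overlap, and it was 8.66 in KO tumour 1. Lyz2, the lysozyme of macrophages and granulocytes, was at 10.06, 10.68 and 11.52 in T cell rich and 7.87, 8.42 and 9.995 in T cell poor tumours, and rose by 2.08 (SE 0.36, adjusted p = 0.0445 in limma). Its groups did not overlap, although the highest T cell poor value came close to the lowest T cell rich value. Among genes of the extracellular matrix, Dpt and Dcn rose as well. Dpt, which encodes dermatopontin, was at 6.93, 7.62 and 8.59 in T cell rich and 4.77, 4.93 and 6.56 in T cell poor tumours and rose by 2.39 (SE 0.35, adjusted p = 0.0264 in limma). Dcn, which encodes the proteoglycan decorin, was at 5.95, 6.64 and 7.24 in T cell rich and 5.23, 5.41 and 5.78 in T cell poor tumours and rose by 1.16 (SE 0.19, adjusted p = 0.0445 in limma). Neither overlapped between groups. The matrix genes Col1a1, Col1a2, Col3a1 and Lum had differences of -0.08, 0.01, 0.06 and -0.02.

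Aim2, a cytosolic DNA sensor of the inflammasome, was at 8.58, 9.03 and 9.38 in T cell rich and 6.59, 7.15 and 8.10 in T cell poor tumours and rose by 1.79 (SE 0.26, adjusted p = 0.0264 in limma). Its T cell rich values had an SD of 0.31, the smallest among the 19 genes that rose. Of the 8 measured Pyhin genes on chromosome 1, to which Aim2 belongs, 6 were higher at an unadjusted p below 0.05. The other genes that rose had an adjusted p of 0.0445 in limma. They were Rgs2, a regulator of G protein signalling, with a rise of 1.46 (SE 0.24), Rp2, a GTPase-activating protein, with 1.26 (SE 0.22), Il13ra1, a chain of the interleukin 13 receptor, with 1.20 (SE 0.20), and Ctso, a cysteine cathepsin, with 0.96 (SE 0.17). Il13ra1 and Ctso lay outside the naming rule and are named because they complete the 19. Olfr1424, the olfactory receptor gene that fell by 0.75 on the log2 scale (SE 0.13, adjusted p = 0.0445 in limma), was at 2.32, 2.56 and 2.71 in T cell rich and 2.95, 3.24 and 3.70 in T cell poor tumours. Its mean level lay at percentile 3.93 of all genes.

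The lists of cell type and pathway genes are described by their counts and medians, beside the median of -0.07 and the shares of 7.62% higher and 6.0% lower at an unadjusted p below 0.05 over all genes tested. Of 506 genes on the 31 lists 436 were measured. The NK cell list had the highest median difference, 1.13, followed by MHC class II presentation (0.95), neutrophil (0.93), T cell surface and costimulation (0.90) and lymphocyte chemokines and receptors (0.82). The lowest medians were those of the pro-B and pre-B list, -0.46, MYC targets of ribosome biogenesis, -0.25, mitosis, -0.20, and DNA replication, -0.19. Of the NK cell, macrophage, dendritic cell and mature B cell lists, only Klrd1 and Lyz2 passed the adjusted threshold with all 12 tumours, and the counts below are at an unadjusted p. The part of each cell type in the difference of any single gene was not tested.

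**Figure D4:**
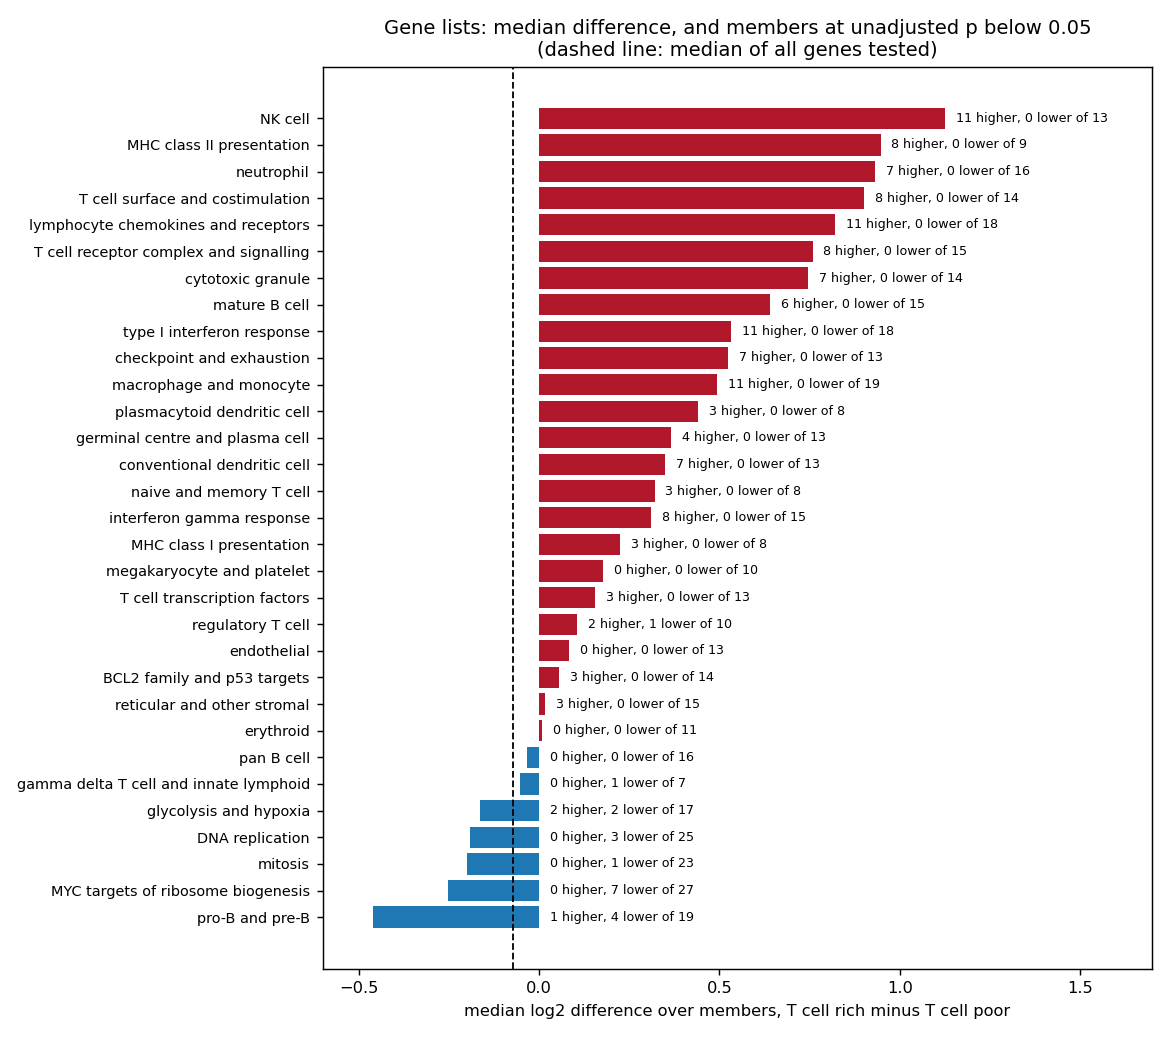
Median log2 difference (T cell rich minus T cell poor) over the measured members of each of 31 gene lists, with the members at an unadjusted p below 0.05 counted beside each bar. Bars start at 0 and the dashed line marks -0.07, the median of all genes tested. The NK cell list reaches 1.13 with 11 of 13 members higher, and the pro-B and pre-B list -0.46 with 4 of 19 lower and 1 higher.

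Other T cell genes, which were not independent of the ranking, were uneven in how far they followed the score. In the list of T cell receptor complex and signalling genes, 8 of 15 measured members were higher and 0 lower at an unadjusted p below 0.05, 0 passed the adjusted threshold, and the median was 0.76 (0.93 without KO tumour 1). Lcp2, the adaptor SLP-76, was at 7.002, 7.73 and 8.28 in T cell rich and 6.22, 6.52 and 7.12 in T cell poor tumours, a difference of 1.03 (SE 0.21, adjusted p = 0.0563 in limma). Skap1, an adaptor of integrin activation, had a difference of 0.94 (SE 0.20, adjusted p = 0.0634), with 5 of 6 T cell rich tumours above all T cell poor ones. Themis, a regulator of thymocyte selection, had 1.27 (SE 0.28). By contrast, the difference was 0.04 (SE 0.15) for Cd247, the zeta chain of the receptor, and 0.13 (SE 0.13) for Zap70, the kinase that binds it. In the list of T cell surface genes 8 of 14 were higher and 0 lower, with a median of 0.90. Cd8b1 was at 4.94, 6.84 and 9.50 in T cell rich and 4.83, 5.02 and 5.49 in T cell poor tumours, a difference of 1.88 (SE 0.55, adjusted p = 0.154 in limma, and 0.028 without KO tumour 1). The costimulatory receptors Icos, with 0.91 (SE 0.23), and Cd28, with 1.30 (SE 0.35), were alike in that 5 of 6 T cell rich tumours lay above all T cell poor tumours and KO tumour 1 did not. Cd5 had a difference of 0.21 (SE 0.20). Without KO tumour 1, adjusted p-values in limma were 0.0085 for Icos, 0.0066 for Cd28, 0.024 for Lcp2 and 0.0036 for Themis.

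Transcription factors of T cells differed less. Of 13 measured, 3 were higher and 0 lower at an unadjusted p below 0.05, with a median of 0.15. Id2, a factor of NK and effector T cells that also acts in dendritic cells, was at 6.49, 7.42 and 8.11 in T cell rich and 5.76, 6.12 and 6.90 in T cell poor tumours, a difference of 1.18 (SE 0.26, adjusted p = 0.0651 in limma). Satb1, a chromatin organiser of thymocytes, had 1.03 (SE 0.37), and Bcl11b, which T cell commitment requires, had 0.15 (SE 0.16). In the naive and memory list 3 of 8 were higher and 0 lower, with a median of 0.32. Dapl1 was at 5.55, 6.94 and 8.21 in T cell rich and 4.88, 5.17 and 5.59 in T cell poor tumours, a difference of 1.75 (SE 0.36, adjusted p = 0.0563 in limma). Ltb, lymphotoxin beta of T and B cells, had 0.91 (SE 0.19, adjusted p = 0.0568) with no overlap. Without KO tumour 1, adjusted p-values in limma were 0.0085 for Id2, 0.0047 for Dapl1 and 0.008 for Ltb. Regulatory T cell genes had a median of 0.11, with 2 of 10 higher and 1 lower. Foxp3, their defining factor, was at 5.28, 5.47 and 5.60 in T cell rich and 5.05, 5.499 and 5.84 in T cell poor tumours, a difference of -0.04 (SE 0.13). Tnfrsf18, or GITR, had 0.64 (SE 0.22) and Ctla4 had 0.67 (SE 0.27). Among γδ T cell and innate lymphoid genes, 0 of 7 were higher and 1 was lower, with a median of -0.05 (0.05 after quantile normalization), and Il17a had a difference of -0.32 (SE 0.14). Trgv1, a variable gene of the T cell receptor gamma chain that is not on the list and was chosen after its values were seen, was at 5.05, 5.72 and 6.16 in T cell rich and 4.32, 4.48 and 4.94 in T cell poor tumours. Its groups did not overlap, and the difference was 1.07 (SE 0.21, adjusted p = 0.0547 in limma).

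Cytotoxic genes were uneven within their list. Of 14 measured, 7 were higher and 0 lower at an unadjusted p below 0.05, with a median of 0.75. Gzma, granzyme A, was at 7.58, 9.44 and 10.53 in T cell rich and 5.30, 6.38 and 7.92 in T cell poor tumours, a difference of 2.80 (SE 0.52, adjusted p = 0.051 in limma). Of the T cell rich tumours 5 lay above all T cell poor tumours, and KO tumour 1 at 7.58 did not. Ccl5, a chemokine stored by effector lymphocytes, had a difference of 2.19 (SE 0.42, adjusted p = 0.0547), Nkg7, a protein of cytotoxic granules, 2.15 (SE 0.45), and Gzmb 1.49 (SE 0.33). Prf1, the pore-forming perforin, had 0.14 (SE 0.16), and Ifng, which encodes interferon γ, had 0.42 (SE 0.25). In the NK list 11 of 13 members were higher and 0 lower, and only Klrd1 passed the adjusted threshold. Ncr1, the NKp46 receptor that defines NK cells, was at 4.29, 5.17 and 6.17 in T cell rich and 3.50, 4.13 and 4.39 in T cell poor tumours, a difference of 1.13 (SE 0.28, adjusted p = 0.105 in limma). Klrb1c, or NK1.1, had 1.01 (SE 0.28). Klrk1, the activating receptor NKG2D, had 1.85 (SE 0.35) and Klrc1, the inhibitory partner of CD94, had 1.83 (SE 0.37). The NK list mean was 4.34 in KO tumour 1, inside the T cell poor range of 3.87 to 4.45. The checkpoint and exhaustion list, which holds ligands as well as receptors, had a median of 0.52, with 7 of 13 higher and 0 lower. Among the 7 were the ligand genes Cd86, Cd80 (0.68), Pdcd1lg2 (0.57) and Cd274 (0.52). Cd86, a ligand of CD28 on antigen-presenting cells, had 1.60 (SE 0.34, adjusted p = 0.0578), and Havcr2, or TIM-3, had 0.98 (SE 0.22). Receptors known from exhausted T cells were uneven. Beside Havcr2, the differences were 0.54 (SE 0.14) for Entpd1, or CD39, and 1.22 (SE 0.45) for Btla, both at an unadjusted p below 0.05, and -0.07 (SE 0.15) for Pdcd1, 0.16 (SE 0.13) for Lag3 and 0.13 (SE 0.18) for Tigit, which were not. Without KO tumour 1, adjusted p-values in limma were 0.0059 for Gzma, 0.0009 for Ccl5, 0.0028 for Nkg7 and 0.008 for Gzmb. In the same fit they were 0.021 for Ncr1, 0.000756 for Klrk1, 0.0028 for Klrc1, 0.0144 for Cd86, 0.0118 for Havcr2 and 0.00361 for Btla.

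Chemokines and interferon-inducible genes had positive medians. In the list of lymphocyte chemokines and receptors, 11 of 18 were higher and 0 lower at an unadjusted p below 0.05. Cxcl9, an interferon γ inducible attractant of T cells, was at 5.65, 7.55 and 7.96 in T cell rich and 4.61, 5.31 and 5.92 in T cell poor tumours, a difference of 1.89 (SE 0.38, adjusted p = 0.0563 in limma). Cxcr6, a receptor of resident T and NK cells, had 1.39 (SE 0.28, adjusted p = 0.0563). Cxcl13 and Ccl19, made by stromal cells of B and T cell zones, had 1.85 (SE 0.47) and 1.49 (SE 0.33). The interferon γ list had 8 of 15 higher and 0 lower, with a median of 0.31. Gbp4, a guanylate-binding protein, was at 5.30, 6.55 and 7.62 in T cell rich and 4.23, 4.66 and 4.99 in T cell poor tumours, a difference of 1.82 (SE 0.35, adjusted p = 0.0547 in limma) with no overlap. Iigp1, an immunity-related GTPase, had 2.20 (SE 0.45). The type I list had 11 of 18 higher and 0 lower, with a median of 0.53. Ifit3 was at 7.16, 8.37 and 9.47 in T cell rich and 5.79, 6.60 and 7.05 in T cell poor tumours, and Rtp4 at 6.76, 7.75 and 9.29 in T cell rich and 5.52, 6.15 and 6.59 in T cell poor tumours. Neither overlapped, and their differences were 1.79 (SE 0.40, adjusted p = 0.0667) and 1.77 (SE 0.38, adjusted p = 0.0634 in limma). In limma without KO tumour 1, the adjusted p was 0.0048 for Cxcl9, 0.0029 for Cxcr6, 0.0324 for Cxcl13 and 0.0116 for Ccl19, and among the interferon genes 0.0073 for Gbp4, 0.0049 for Iigp1, 0.016 for Ifit3 and 0.0174 for Rtp4.

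Genes of antigen presentation had positive medians. In the MHC class II list, 9 of 9 members had positive differences and 8 of 9 were higher at an unadjusted p below 0.05, with a median of 0.95 (1.29 without KO tumour 1). H2-Ob, a chain of the modulator H2-O, was at 7.15, 8.22 and 9.06 in T cell rich and 5.77, 6.37 and 7.14 in T cell poor tumours, a difference of 1.66 (SE 0.33, adjusted p = 0.0561 in limma) with no overlap. Ctss, cathepsin S, had 0.80 (SE 0.24) and H2-Aa 1.32 (SE 0.47). The list mean was 6.61 in KO tumour 1, the lowest T cell rich value, against a T cell poor range of 6.05 to 7.43. Class I genes had a median of 0.22, with 3 of 8 higher, and H2-M3, a class Ib molecule, had 1.02 (SE 0.20, adjusted p = 0.056). Conventional dendritic cell genes had a median of 0.35 with 7 of 13 higher and 0 lower. Clec9a, a receptor of cross-presenting dendritic cells, had 1.58 (SE 0.36), and Xcr1, which defines the same cells, was at 3.64, 4.47 and 5.74 in T cell rich and 3.36, 3.88 and 4.36 in T cell poor tumours. Siglech, of plasmacytoid dendritic cells, had 1.001 (SE 0.35), in a list with a median of 0.44 and 3 of 8 higher. In limma without KO tumour 1, the adjusted p was 0.0098 for H2-Ob, 0.0118 for Ctss, 0.0309 for H2-Aa, 0.0147 for H2-M3 and 0.0173 for Clec9a.

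Myeloid lists had positive medians as well, with markers that differed in how well they separated the groups. In the macrophage and monocyte list 11 of 19 were higher and 0 lower at an unadjusted p below 0.05, with a median of 0.49, and Lyz2 passed the adjusted threshold. Adgre1, the F4/80 antigen, was at 6.13, 6.44 and 6.76 in T cell rich and 5.28, 5.89 and 6.11 in T cell poor tumours, a difference of 0.59 (SE 0.16, adjusted p = 0.123 in limma) with no overlap. Spic, the factor of red pulp macrophages, had 1.27 (SE 0.29, and an adjusted p of 0.0173 in limma without KO tumour 1), and C1qa had 0.19 (SE 0.16). In the neutrophil list 7 of 16 were higher and 0 lower, with a median of 0.93, but it separated the tumours unlike the lymphocyte lists. Its mean lay above all T cell poor tumours only in WT tumour 4 and WT tumour 5. The highest T cell poor mean was 7.62 in KO tumour 9, followed by 6.57 in KO tumour 8. KO tumour 5 (7.26) and KO tumour 1 (6.69) lay between these. The median difference of the neutrophil list was 0.14 within KO tumours (3 T cell rich, 4 T cell poor) and 1.83 within WT tumours (3 T cell rich, 2 T cell poor). This contrast was not tested for the list. Ly6g, which defines neutrophils, was at 3.90, 4.74 and 6.72 in T cell rich and 3.73, 4.22 and 5.93 in T cell poor tumours, a difference of 0.69 (SE 0.49). Lists of tissue cells had small medians, beside -0.07 over all genes tested. The erythroid list had a median of 0.01 (-0.12 after quantile normalization) with 0 of 11 higher or lower, the endothelial list 0.08 with 0 of 13, and the megakaryocyte and platelet list 0.18 with 0 of 10. Stromal genes had a median of 0.02 with 3 of 15 higher, and Col1a1, the main fibrillar collagen, had a difference of -0.08 (SE 0.12) where Dcn rose. The 3 were Dcn, Acta2 (0.79) and Cr2, which is also on the mature B cell list and is counted in both.

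Lists of B lineage stages had medians of both signs, and the difference between stages was not tested. Pan B cell genes had a median of -0.03, with 0 of 16 higher or lower at an unadjusted p below 0.05. Cd79a was at 3.69, 6.14 and 6.60 in T cell rich and 5.81, 6.33 and 6.88 in T cell poor tumours, a difference of -0.53 (SE 0.41), and Pax5, the factor of B cell identity, had -0.50 (SE 0.31). Pro-B and pre-B genes had a median of -0.46, with 4 of 19 lower and 1 higher, and 0 past the adjusted threshold. The higher one was Il7r, the interleukin 7 receptor of early B cells and T cells, at 1.19 (SE 0.44, adjusted p = 0.257 in limma), and Rag1 and Rag2, which cut receptor genes for recombination, had 0.81 (SE 0.74) and 0.82 (SE 0.70). Igll1, a chain of the surrogate light chain, was at 5.58, 6.47 and 9.39 in T cell rich and 6.43, 7.50 and 10.66 in T cell poor tumours, a difference of -1.26 (SE 0.75, adjusted p = 0.456 in limma). The 9.39 was KO tumour 1, and its pro-B and pre-B list mean of 7.66 lay above all T cell poor tumours. Vpreb1, the other chain, had -1.89 (SE 0.89, adjusted p = 0.371), the most negative difference of all genes tested. Mature B cell genes had a median of 0.64, with 6 of 15 higher and 0 lower. Gpr183, a receptor that positions B cells, had 1.24 (SE 0.34), and Cr2, the complement receptor CD21, was at 4.35, 6.85 and 9.64 in T cell rich and 4.41, 4.69 and 5.14 in T cell poor tumours, a difference of 2.12 (SE 0.65, adjusted p = 0.171). With Jchain, 4 of 13 germinal centre and plasma cell genes were higher and 0 lower, and this was the list whose mean lay above all T cell poor tumours in all 6 T cell rich tumours. Its median difference was 0.37, with 11 members positive and 2 negative, and Jchain had the largest difference. The differences of Xbp1, Sdc1, Bcl6 and S1pr2 were 0.04, -0.01, 0.27 and -0.26. The part of Jchain in the list mean was not tested. Fas, the death receptor, had 0.75 (SE 0.17) and Mzb1, a chaperone of antibody assembly, had 0.90 (SE 0.25). In limma without KO tumour 1, the adjusted p was 0.0251 for Gpr183 and 0.0059 for Fas, and the 1 lower list gene was Myb, a factor of progenitors, at -0.94 (adjusted p = 0.0349).

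**Figure D5:**
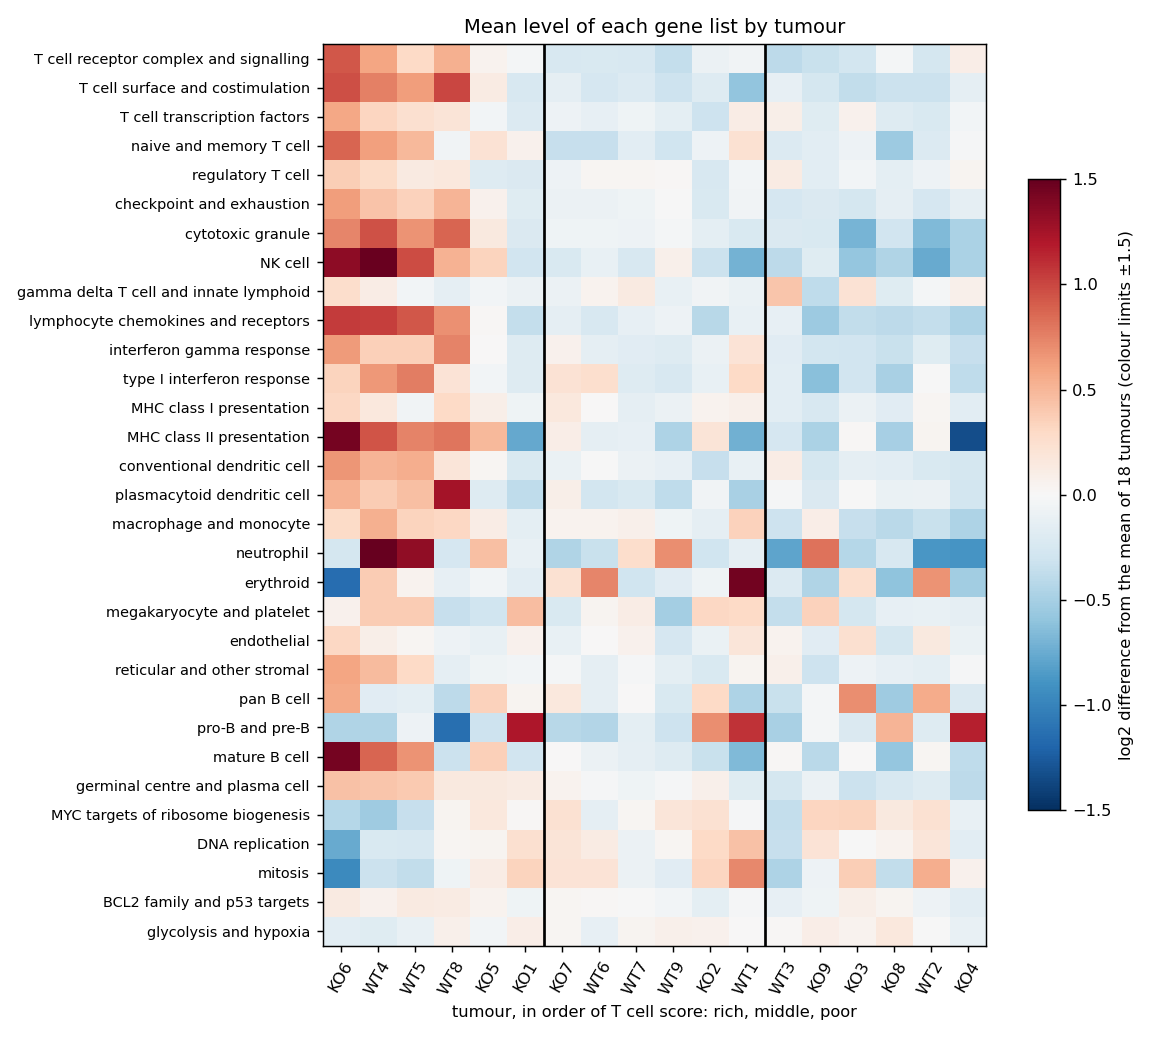
Mean log2 level of each of 31 gene lists in each of the 18 tumours, in order of T cell score, as the difference from the mean of the 18 tumours (colour limits ±1.5, black lines between the T cell rich, middle and T cell poor groups). The T cell, NK cell, chemokine and MHC class II rows are red in the leftmost tumours and pale or blue in KO tumour 1, whose pro-B and pre-B row is red at a list mean of 7.66.

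Growth genes had small negative medians, beside a median of -0.07 over all genes tested. Of those 19932 genes, 12623 had negative differences and 6.0% were lower at an unadjusted p below 0.05 in limma. In the list of MYC targets of ribosome biogenesis, 25 of 27 members had negative differences, 7 were lower and 0 higher at an unadjusted p below 0.05, and 0 passed the adjusted threshold, with a median of -0.25. Nolc1, a nucleolar phosphoprotein, was at 6.94, 7.35 and 7.61 in T cell rich and 7.67, 7.87 and 8.21 in T cell poor tumours, a difference of -0.57 (SE 0.15, adjusted p = 0.116 in limma) with no overlap. Ddx21, a nucleolar helicase, had -0.71 (SE 0.22), and Ncl, nucleolin, had -0.49 (SE 0.17). Myc itself was at 9.03, 9.66 and 10.30 in T cell rich and 9.96, 10.12 and 10.91 in T cell poor tumours, a difference of -0.61 (SE 0.22, adjusted p = 0.257 in limma), and 4 of 6 T cell rich tumours lay below all T cell poor tumours. Replication genes had a median of -0.19 with 3 of 25 lower, among them Mcm4, a subunit of the replicative helicase, at -0.41 (SE 0.16). Mitosis genes had a median of -0.20 with 1 of 23 lower, Prc1, an organiser of the spindle midzone, at -0.57 (SE 0.26). Glycolysis genes had 2 of 17 higher and 2 lower. BCL2 family and p53 target genes had 3 of 14 higher, among them the survival gene Mcl1 at 0.43 (SE 0.16). The negative medians of these lists kept their sign after quantile normalization and after median centring, which both moved the median of all genes to -0.04.

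After Olfr1424, the lower genes of smallest p came from several functions, and none of them passed the adjusted threshold of limma with all 12 tumours. Luzp1, an actin and centrosome associated protein, was at 5.07, 5.26 and 5.71 in T cell rich and 5.72, 6.03 and 6.31 in T cell poor tumours, a difference of -0.70 (SE 0.14, adjusted p = 0.0563). Ehd2, a membrane-remodelling ATPase of caveolae, had -0.56 (SE 0.11, adjusted p = 0.0563), and Lrrc8b, a subunit of volume-regulated anion channels, had -0.52 (SE 0.11, adjusted p = 0.0578). None of these 3 overlapped between groups. Slc19a1, the reduced folate carrier, was at 7.34, 7.78 and 8.13 in T cell rich and 8.16, 8.51 and 9.33 in T cell poor tumours, a difference of -0.90 (SE 0.20, adjusted p = 0.0758 in limma) with no overlap. Pacsin2, an endocytic membrane-bending protein, had -0.67 (SE 0.15) and Pdap1, a phosphoprotein bound by PDGF, had -0.53 (SE 0.13). Rcc2, a mitotic regulator, had -0.64 (SE 0.16), Mrps5, of the mitochondrial ribosome, -0.58 (SE 0.14), and Ppm1g, a protein phosphatase, -0.60 (SE 0.15). Nfix, a transcription factor, had -0.57 (SE 0.14), Pdk1, a mitochondrial kinase, -0.42 (SE 0.10), Hpdl -0.48 (SE 0.11) and Hus1b -0.64 (SE 0.15). Defb38 and Fbxo15 lay at percentiles 7.58 and 3.80 of all genes, with differences of -0.64 (SE 0.16) and -0.43 (SE 0.11). Several of the lower genes passed the threshold without KO tumour 1, Luzp1 at an adjusted p of 0.023 and Rcc2 at 0.017 in limma. With other single tumours left out, the adjusted p in limma reached 0.161 for Luzp1 and 0.25 for Rcc2.

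The defining markers chosen for other cells of the spleen are given as single genes and do not measure the share of each cell type. Klf1, the erythroid factor, was at 6.30, 6.63 and 7.34 in T cell rich and 6.34, 6.88 and 7.88 in T cell poor tumours, a difference of -0.19 (SE 0.26). Pf4, of platelets, had 0.74 (SE 0.36), Pecam1, of endothelium, had 0.39 (SE 0.25), and Pdgfrb, of pericytes and stroma, had -0.08 (SE 0.12). None of these passed, and in all of them the groups overlapped. Prdm11 was at 4.87, 5.10 and 5.42 in T cell rich and 4.92, 5.38 and 5.62 in T cell poor tumours, a difference of -0.19 (SE 0.14).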

How the data were processed

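RNA from 18 whole splenic tumours was measured on Affymetrix arrays, with 1 array for each. The authors deposited intensities per probe set, not log-transformed, for which the submitters' processing notes name RMA. Its version and the genome build are not given in the sources used here. Deposited intensities ran from 1.63 to 14996. The number of tumours limits the precision of every value. Values were transformed to log2 with no pseudocount. Of 35556 probe sets, 21789 had 1 gene symbol in the platform annotation, 1621 had several and 12146 had none and were left unnamed. Each of 19938 genes was represented by the probe set of highest mean over 18 arrays, with no filter on dim genes.

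The T cell score was the mean log2 level of 6 genes. The 6 highest and 6 lowest tumours were compared with limma 3.58.1 in R 4.3.3 (lmFit and eBayes, no covariate), with Benjamini-Hochberg adjustment over the 19932 genes outside the score and a threshold of 0.05. The limma step was tested on simulated data with known changes and independent noise in each gene. That simulation did not rank tumours by a score, so it does not measure false calls in the groups used here. The score was compared between genotypes by a two-sided exact permutation test and counts of tumours by Fisher's exact test. The other steps used Python 3.11.15, pandas 2.3.3, numpy 2.4.6 and scipy 1.17.1.

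The groups and the 31 gene lists were chosen with earlier results of these data known. Named were the score genes, the 15 genes higher and the 15 lower by size of change among those past the threshold, with places filled by smallest p and unannotated, Olfr, Vmn, Mir and Snor genes passed over, up to 6 members of each list past the threshold or otherwise the 2 of smallest p, and a set of defining markers. Further genes in the text were picked with their values known. Alternatives covered the ranking of tumours, genotype, scaling, probe set choice, dim genes, the variance model, array weights, B lineage level, the replicate number as a block and left-out tumours. Tumours of the same replicate number in the 2 genotypes correlated at -0.23 to 0.49, above 0.1 in 4 of 9 pairs, so the numbers were not taken to pair tumours. No scan date is stated in the labels. Promoters came from RefSeq on GRCm38.p6.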

Additional observations from a re-analysis of the deposited data

Results flagged for a closer look

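Within groups of 6 or 9 tumours, 6 values stood far from the other tumours by Dixon's criterion, out of 222 groups of values examined, where chance gives about 1 in 20. In the T cell poor group, KO tumour 9 had the highest Il1b (6.51), C1qa (6.95) and Ly6g (5.93), which are genes of inflammatory myeloid cells, macrophages and neutrophils. Leaving out this tumour gave 623 higher and 53 lower genes in limma, against 19 and 1 with it. KO tumour 4, also T cell poor, had the lowest Gpr171 (4.31), with the other 5 T cell poor tumours between 5.88 and 6.03. WT tumour 8, a T cell rich tumour, had a Cd79a of 3.69. KO tumour 6 had a T cell score of 7.89, far above the next KO tumour at 6.54.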

How the results depend on the processing

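With all other choices kept, the numbers of genes higher and lower past the threshold of limma (19 and 1) were 0 and 0 with genotype as a covariate (1465 and 1217 at an unadjusted p below 0.05), 0 and 0 with 9 against 9 tumours (1192 and 958) and 0 and 0 with tumours ranked by scaled genes (1149 and 1044). They were 1 and 0 after quantile normalization, 7 and 0 after median centring, 32 and 1 with the mean of all probe sets, 84 and 2 among genes above the median gene, 72 and 4 with trend and robust, 337 and 26 with array weights and 53 and 2 with the pan B cell list as a covariate. Ranking without Cd4 and Lat gave 71 and 13, 5 against 5 tumours 211 and 26, and the score as a continuous term over 18 tumours 749 and 220. When ranked without Cd4 and Lat, 12 of the 20 genes of the comparison were past the threshold. The replicate block gave 20 and 1, with a consensus correlation of -0.04, and changed no other call. Leaving out 1 tumour gave 0 to 623 higher and 0 to 53 lower genes. The cause of these moves was not tested. The KO minus WT difference of the score was -0.55 to -0.14 with 1 tumour left out and -0.32 (exact p = 0.484) with the replicate block. Of 2657 values of 103 named genes over 26 settings, 2166 kept direction and side of the threshold, 270 no longer passed, 215 passed in addition and 6 changed sign. These were Foxp3 at 0.0024 with scaled genes and 0.028 without KO tumour 3 (-0.131 to 0.028 with 1 tumour left out), Pecam1 at -0.0054 without Cd4 and Lat, Pdgfrb at 0.0037 with the continuous score and 0.0415 with scaled genes, and Prdm11 at 0.0099 with scaled genes. The list medians kept their sign in 25 of 31 lists, and the exceptions were the γδ, erythroid, megakaryocyte, endothelial, stromal and pan B cell lists, with medians between -0.05 and 0.18. With 6 tumours a group, a difference that did not pass is not shown to be absent.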

Other observations

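Further gene families of the T cell rich against T cell poor comparison were looked at after their values were seen, and the counts are at an unadjusted p below 0.05, which 7.62% of all genes passed as higher and 6.0% as lower. Of 23 measured Klr genes, lectin-like receptors of NK and T cells, 18 were higher and 1 was lower, with a median difference of 1.08, and 1 of them, Klrd1, passed the adjusted threshold. The 6 measured Ly49 (Klra) receptors, which bind MHC class I in mice, were among the 18, with differences of 0.72 to 1.95. Klra2 was at 5.42, 6.66 and 7.33 (lowest, median and highest) in T cell rich and 3.93, 4.44 and 5.55 in T cell poor tumours, a difference of 1.81 (SE 0.33, adjusted p = 0.051 in limma). The ranges of Klra2 overlapped.

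Of 10 granzyme genes 2 were higher, Gzma and Gzmb, and 1 was lower, Gzmf at -0.40 (SE 0.14), with a median of -0.04. Of 10 genes of SLAM family receptors and their adaptors 5 were higher and 0 lower. Cd48, a receptor of this family on lymphocytes, was at 9.47, 9.63 and 10.26 in T cell rich and 8.17, 8.82 and 9.60 in T cell poor tumours. Sh2d1b1, an adaptor of NK cells related to SAP, had a difference of 1.76 (SE 0.44, adjusted p = 0.1 in limma). Of 5 Trim12 and Trim30 genes on chromosome 7, of the TRIM family, 4 were higher and 0 passed the adjusted threshold, with a median of 1.26. Probe sets of paralogs may share signal.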
